A study of Drosophila melanogaster with 12 samples.

Results

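The gene traffic jam (tj, FBgn0000964) is 1 of 17469 genes in a table of Piwi-bound small RNAs from Drosophila ovarian somatic cells (OSC), and its row was read across all 12 libraries. It was taken by its identifier and not by any measured value. OSC is a cultured line grown from the somatic cells of the fly ovary. In 6 libraries endogenous Daedalus (Daed) was depleted by siRNA and Flag-tagged Daed was supplied from a plasmid, as wild type (WT) in 3 libraries and as the deltaSAM mutant in the other 3. In the remaining 6 libraries endogenous Armitage (Armi) was depleted and Flag-tagged Armi was supplied, as WT in 3 libraries and as the KEE mutant in 3. The labels do not say what KEE stands for. Plasmid and siRNA were given after 48 h of culture and cells were taken after another 48 h. All 4 groups therefore carry a knockdown and an overexpressed transgene, and the main comparisons set a mutant transgene against the WT transgene in the same knockdown. Comparisons across the knockdowns are named as such.

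PIWI-interacting RNAs (piRNAs) are small RNAs that guide Piwi proteins to matching transcripts. In ovarian somatic cells many are cut from long transcripts of clusters such as flamenco (flam), which are full of transposon remnants. Others are cut from the messenger RNAs of ordinary genes. The tj gene encodes a large Maf transcription factor of gonadal somatic cells and its messenger RNA, above all the 3′ untranslated region, is the best known genic source. Daed and Armi act in this pathway at the mitochondrial surface, where Armi, an RNA helicase, is brought together with the nuclease Zucchini. What is counted below is the piRNA made from a gene, not the gene's messenger RNA or protein.

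In the annotation (dm6, the Release 6 build) tj spans 3492 bases of chromosome arm 2L, at 2L:19464267-19467758. No other annotated gene overlaps it. Of the 4 nearest genes, 2 on each side, 3 held few piRNAs. The nearest gene, lncRNA:CR45722, starts 1368 bases away and gave 1.66 to 5.99 RPM in the 12 libraries, where RPM is the deposited count of reads scaled to the library size. The next on that side, lncRNA:CR45723, gave between 0 and 2.50 RPM. Both are long noncoding RNA genes. On the other side CG10026, 6544 bases away, gave 1.18 to 10.9 RPM. Top2, the DNA topoisomerase gene 10777 bases away, was the one neighbour with a sizeable level, at 271 to 449 RPM. The tj reads were thus not part of a stretch of genes that all held many, and tj itself had 7401 RPM in the library where it was lowest. The gene table gives 1 value per gene, so the part of the tj transcript that the reads came from cannot be told.

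The libraries held 1396369 to 3995009 reads, of which 687670 to 3185032 were assigned to genes. RPM is relative to all reads of a library. A change in RPM is therefore a change in the part of the Piwi-bound pool, and fewer cells that make a piRNA cannot be told apart from fewer piRNAs per cell. Gene reads made up a different part of the library in each group, at 50.2 ± 0.812% (SD, n = 3) and 58.0 ± 0.598% with Daed WT and deltaSAM and at 63.4 ± 1.32% and 79.5 ± 0.251% with Armi WT and KEE. For this reason the share of gene reads is given beside RPM. Somatic markers outweighed germline markers in every library. All 7 somatic markers looked for were matched. Those other than tj and flam summed to 818 to 837 RPM with Daed WT, 1224 to 1457 with deltaSAM, 904 to 1021 with Armi WT and 4022 to 4129 with KEE. The members did not move alike. With KEE against Armi WT, 4 of the 7 were called higher and 3 lower (adjusted p under 0.05, limma with Benjamini-Hochberg). Over all genes tested 33.0% were called higher and 11.7% lower. Fas3 averaged only 6.17 ± 0.871 RPM with Daed WT and 4.80 ± 2.13 with deltaSAM. The 10 germline markers matched, of 11, summed to 23.7 to 56.9 RPM in the Daed libraries and to 25.2 to 34.3 RPM in the Armi libraries. Among them the mean of vas, the germline helicase, lay between 0.174 and 2.22 RPM in the 4 groups, and zpg was listed at 0 in all 3 Daed WT libraries. In replicate 3 of the deltaSAM group 0.195% of gene reads fell on structural RNA genes, against 0.105 and 0.107% in the other two. Nothing in the labels says that replicates were separate cultures, so the p-values below measure the spread between these samples only.

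With Daed WT the 3 libraries held 7401, 8022 and 7949 RPM of tj. With deltaSAM they held 16342, 18054 and 14290 RPM. Every deltaSAM library was above every WT library, and the lowest of them was replicate 3, the one with more structural RNA. With Armi WT the libraries held 12839, 13673 and 12219 RPM, and with KEE 8294, 8710 and 9002 RPM. All KEE libraries were below all WT libraries of that knockdown. In reads, tj was counted 11100 to 14537 times per library with Daed WT, 25879 to 33157 times with deltaSAM, 31931 to 49158 times with Armi WT and 31239 to 35964 times with KEE. Counting error was therefore small, at 0.451 to 0.949% of the value in a library. The spread between replicates was larger, with a coefficient of variation of 4.36% (Daed WT), 11.6% (deltaSAM), 5.65% (Armi WT) and 4.10% (KEE).

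**Figure D1:**
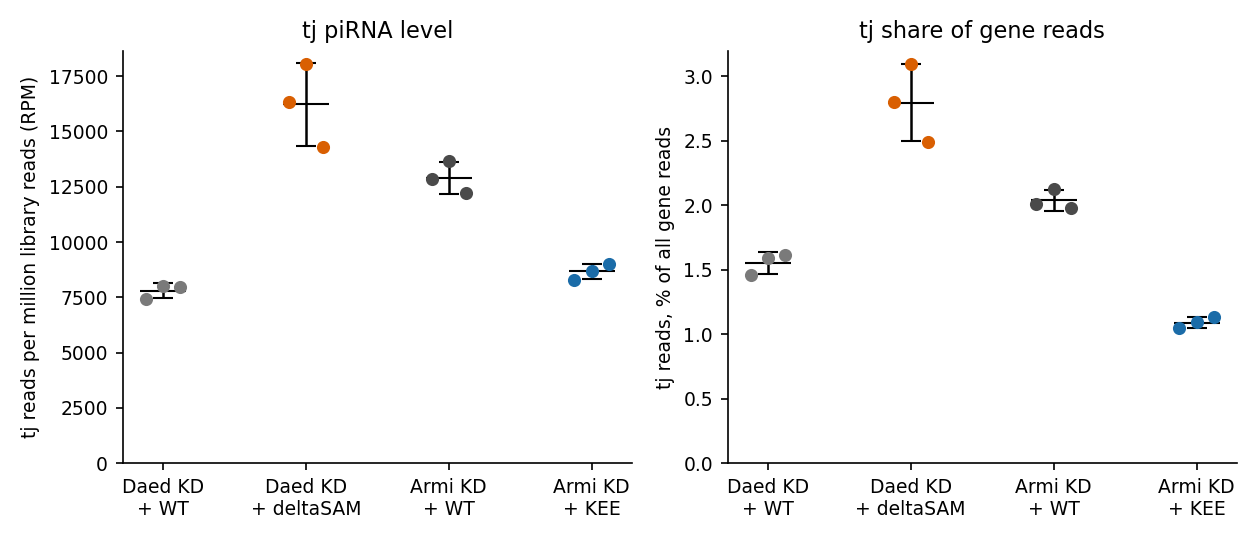
Level of tj piRNAs in RPM (left) and as a percentage of all gene reads (right) in the 12 libraries, with the mean and SD of each group of 3. On both axes the deltaSAM libraries lie highest, while the KEE libraries lie just above the Daed WT libraries in RPM and below them as a share.

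With the deltaSAM transgene tj rose 2.07-fold over WT, from a mean of 7791 ± 339 RPM (SD, n = 3), by 1.05 ± 0.08 on the log2 scale (SE). The adjusted p was 1.8e-11 (limma with Benjamini-Hochberg over the 8246 genes tested). In that comparison 36.2% of the genes tested passed the threshold of 0.05 and 17.3% were called higher and 18.9% lower. A log2 change above that of tj was seen in 3.77% of the genes tested. The call did not depend on the library with more structural RNA, and without it the log2 change was 1.14.

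With the KEE transgene tj fell 1.49-fold, a log2 change of -0.57 ± 0.08, with an adjusted p of 4.3e-07 (limma with Benjamini-Hochberg). Here 44.7% of the genes tested passed and 11.7% were called lower, with 33.0% higher. A log2 change below that of tj was seen in 12.7% of the genes tested. Scaled to the gene-table total in place of the library, the fall was larger, at -0.90 on the log2 scale, since the gene part of the library was larger with KEE. Centred on the median gene it was -0.93, with edgeR and TMM factors -0.997, and with DESeq2 -0.999. The same scalings gave 0.84, 1.27, 1.17 and 1.13 with deltaSAM. The effects of the transgenes on tj differed by -1.63 ± 0.11 on the log2 scale (KEE minus deltaSAM, adjusted p = 1.7e-12, limma with Benjamini-Hochberg). For that difference 40.4% of the genes tested passed the threshold and 11.0% were called lower, with 29.4% higher.

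**Figure D2:**
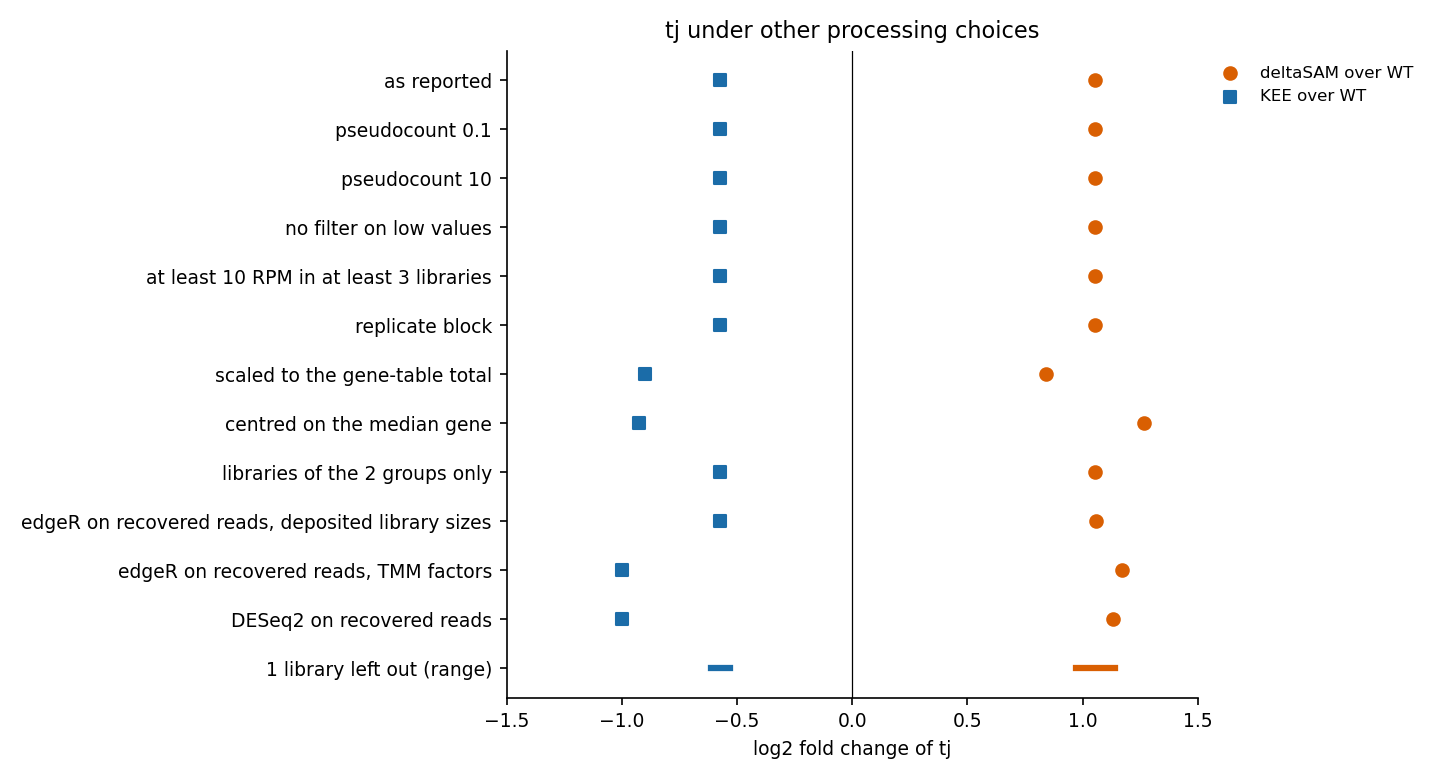
Log2 fold change of tj with deltaSAM (circles) and with KEE (squares) under the analysis as reported and under other choices of pseudocount, filter, scaling and test, with the range over single libraries left out as bars in the last line. All deltaSAM values lie between 0.84 and 1.27 and all KEE values between -0.999 and -0.53.

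As a share of gene reads tj took 1.46, 1.59 and 1.61% with Daed WT and 2.80, 3.09 and 2.49% with deltaSAM. It took 2.01, 2.13 and 1.97% with Armi WT and 1.05, 1.09 and 1.13% with KEE. No group overlapped another on this scale either. The highest share had a 95% Wilson interval of 3.06 to 3.12% and the lowest one of 1.04 to 1.06%, which cover counting error only. In other words, 1 gene read in 64.5 came from tj with Daed WT and 1 in 36.1 with deltaSAM. With Armi WT it was 1 in 49.2 and with KEE 1 in 91.8. The change in share was 1.24 percentage points with deltaSAM and -0.946 with KEE, with an exact two-sided permutation p of 0.1 in each case, the smallest that 3 against 3 libraries allow. The difference between the effects, on log2 shares, was -1.74 (exact permutation within experiments, p = 0.005, the smallest possible). That permutation shuffles labels in both experiments at once, so its null is no effect in either, not equal effects. Full separation in opposite directions fixes its p at the smallest value, whatever the size of the difference.

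The WT groups did not start from the same level. With Armi WT tj was 1.66-fold higher than with Daed WT, by 0.73 ± 0.08 on the log2 scale (adjusted p = 1.5e-08, limma with Benjamini-Hochberg, where 25.3% of the genes tested passed, 18.9% higher and 6.35% lower). Which protein was depleted and replaced, and which experiment a library came from, cannot be told apart there. Ordered by RPM the groups ran Daed WT, KEE, Armi WT and deltaSAM, from low to high. No neighbouring pair overlapped, but the gap between Daed WT and KEE, 272 RPM, was smaller than the SD of either group. That pair differed by 0.15 ± 0.08 on the log2 scale (adjusted p = 0.108, limma with Benjamini-Hochberg), and deltaSAM exceeded Armi WT by 0.32 ± 0.08 (adjusted p = 0.00177). The lower end of the order depended on the scale. As a share of gene reads KEE was lowest, and scaled to the gene-table total it was below Daed WT by a log2 value of -0.51 (adjusted p = 1.8e-06, limma with Benjamini-Hochberg). Centred on the median gene that value was -0.13 (adjusted p = 0.231) and with edgeR and TMM factors -0.34 (adjusted p = 0.000197). The place of deltaSAM at the top did not change with these scalings.

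By RPM tj ranked 2 or 3 among all genes in every library. It was second in 8 of the 12 libraries, and in 7 of these only flam was above it. In replicate 1 of Daed WT, Myc, the growth-promoting transcription factor gene, was also above it. In replicate 3 of deltaSAM the gene above it besides flam was l(2)gl, a cell polarity gene and tumour suppressor. With KEE, Myc was above tj in all 3 libraries, and flam in replicates 1 and 2 only. A rank compares RPM without regard to gene length, so it describes the pool and not how densely a gene is covered.

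The distance between tj and flam narrowed with both mutants. The ratio of tj to flam reads was 0.295, 0.283 and 0.282 with Daed WT and 0.819, 0.914 and 0.677 with deltaSAM. It was 0.610, 0.659 and 0.588 with Armi WT and 0.930, 0.969 and 1.10 with KEE. In each knockdown all mutant libraries were above all WT libraries. In 1 KEE library the tj reads exceeded the reads assigned to flam, which need not be all that the cluster gave. The ratio does not depend on how libraries are scaled. It rose by 1.48 on the log2 scale with deltaSAM and by 0.69 with KEE (exact permutation p = 0.1 each, the smallest possible). The values behind it moved differently: with deltaSAM tj rose while flam went from 27237 to 20269 RPM, and with KEE tj fell while flam fell further, from 20852 to 8702 RPM. Against Myc the ratio of tj was 1.10 ± 0.150 and 1.47 ± 0.212 with Daed WT and deltaSAM, whose ranges overlapped, and 1.29 ± 0.126 and 0.943 ± 0.0204 with Armi WT and KEE, whose ranges did not.

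**Figure D3:**
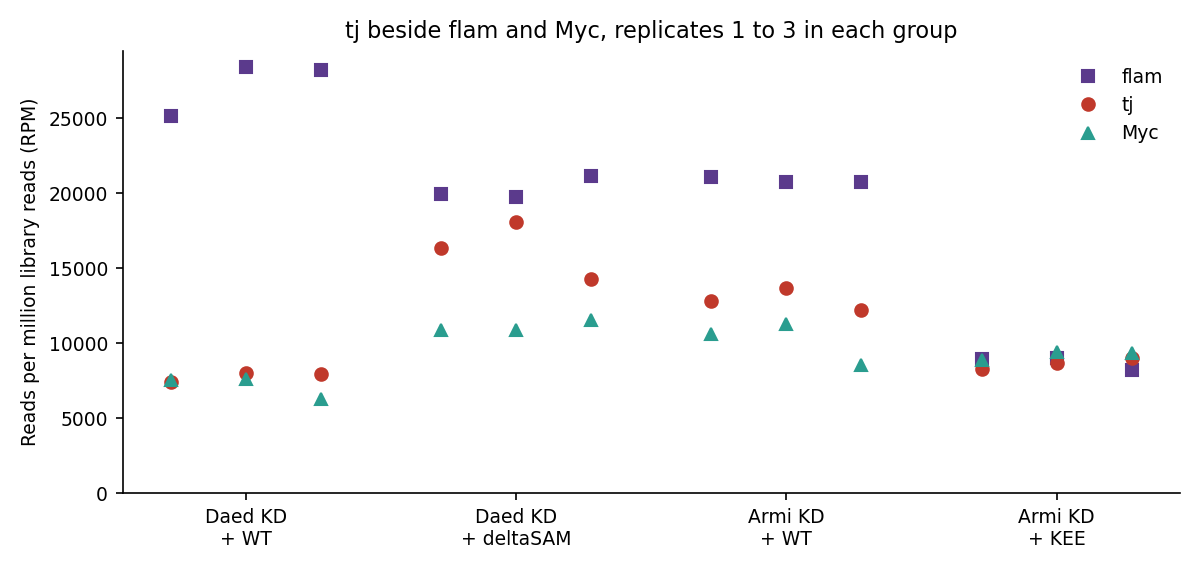
RPM of flam (squares), tj (circles) and Myc (triangles) in each of the 12 libraries, replicates 1 to 3 from left to right in each group. With KEE all 3 genes lie close together, where in the Daed WT libraries flam lies far above the other two.

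Per length of gene, tj was the most densely covered gene in 9 libraries and the second in the 3 KEE libraries. It held 2231 ± 97.2 RPM per kb of gene span with Daed WT, 4647 ± 540 with deltaSAM, 3697 ± 209 with Armi WT and 2483 ± 102 with KEE. The flam locus, which spans 158841 bases, held 171, 128, 131 and 54.8 RPM per kb. The next gene in density was Sec61beta, which encodes a small subunit of the protein channel of the endoplasmic reticulum, with 1025, 1854 and 2053 RPM per kb in the first 3 groups. With KEE Sec61beta reached 2676 ± 120 RPM per kb and was above tj in all 3 libraries, with a ratio of mean densities, tj over Sec61beta, of 0.928. Spans include introns, so densities over exons may be ordered otherwise.

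The 20 genes nearest to tj in mean log2(RPM + 1) were set beside it, to show whether abundant piRNA sources moved alike. In alphabetical order they are brat, BuGZ, CG11360, CG6700, crol, CycG, DIP-alpha, flam, jvl, Klp10A, l(2)gl, larp, msi, msk, Myc, nmo, PlexA, Rm62, Sec16 and Unr. They are the nearest genes but not a close match. Only flam had a higher mean than tj, by 0.71 on the log2 scale. The others lay below tj, from -0.24 (Myc) to -2.19 (msi), and 13 of the 20 were within 4-fold. With deltaSAM 9 of the 20 rose and 5 fell, where 17.3% of all genes tested were called higher and 18.9% lower. Their median log2 change was 0.13, beside -0.10 over all genes tested. At 1.05, tj was second of the 21, and l(2)gl alone was above it, with a log2 change of 1.14 (5780 ± 136 to 12824 ± 1780 RPM). Klp10A, a microtubule-depolymerising kinesin, followed, going from 2035 ± 129 to 3683 ± 120 RPM. With KEE 3 of the 20 rose and 13 fell, where 33.0% of all genes tested were called higher and 11.7% lower. Their median log2 change was -0.54, beside 0.30 over all genes tested. There tj, at -0.57, was the 11th of the 21 and so in the middle of its peers.

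The share of peers called depended on the scaling. Scaled to the gene-table total 9 peers rose and 9 fell with deltaSAM, and 2 rose and 17 fell with KEE. Centred on the median gene 13 rose and 2 fell with deltaSAM, and with KEE the counts were again 2 and 17. With edgeR and TMM factors 11 rose and 4 fell with deltaSAM, and 2 rose and 18 fell with KEE. Of all 9249 genes tested with gene-table scaling, 962 were called higher and 2365 lower with deltaSAM, and 1694 and 1386 with KEE. Centring called 2034 higher and 923 lower of 8246 with deltaSAM, and 1667 and 1685 with KEE. For edgeR and TMM factors these counts were 1555 and 1008 of 8246 with deltaSAM, and 1862 and 1979 with KEE. A scaling moves all genes of a library alike and so leaves the place of tj among its peers as it is. Over all genes tested the split moved as well, and with KEE 73.8% of the called genes were higher as reported against 55.0% with gene-table scaling and 49.7% with centring. With deltaSAM it was 47.8% as reported, and 28.9 and 68.8% with those scalings.

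**Figure D4:**
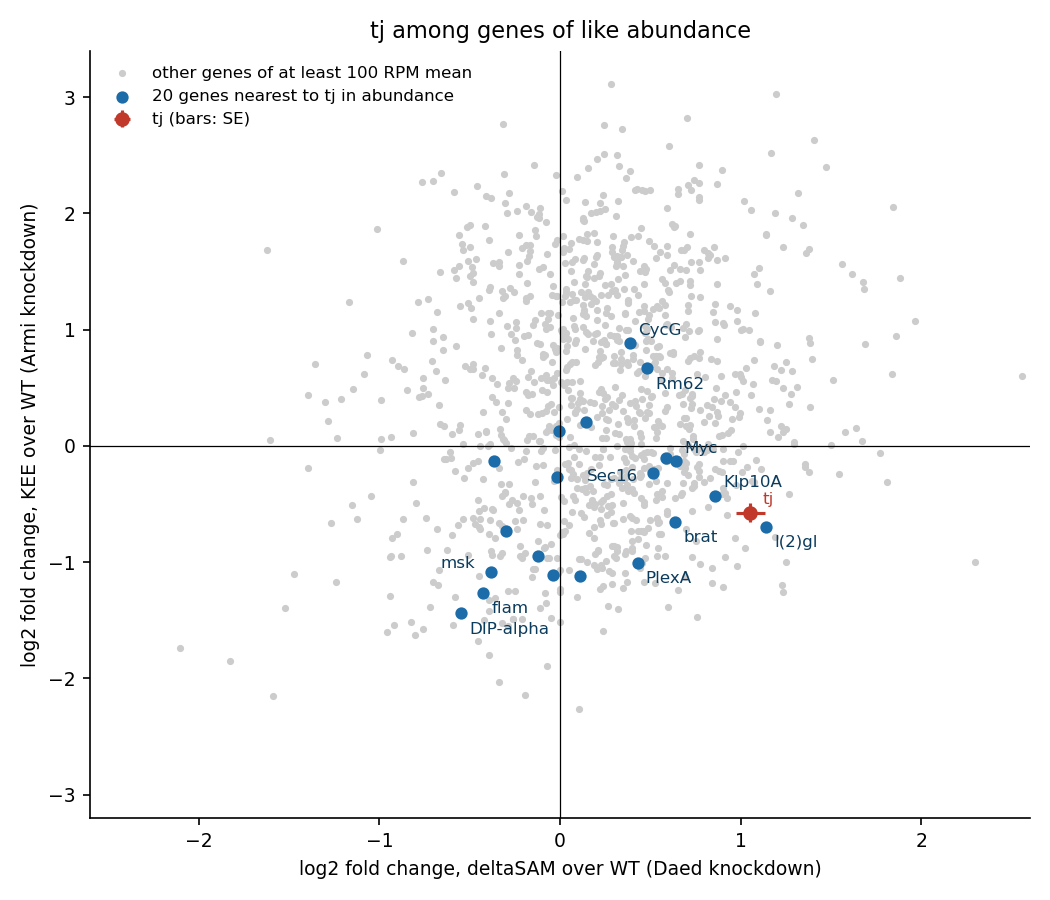
Log2 fold change with deltaSAM (horizontal) against that with KEE (vertical) for 1165 genes with a mean of at least 100 RPM. The 20 genes nearest to tj in abundance are large points, and tj has SE bars. On the horizontal axis tj lies at the right edge of its peers beside l(2)gl, and on the vertical axis it lies in the middle of them.

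The peers that moved as tj did, higher with deltaSAM and lower with KEE, were l(2)gl, brat, PlexA, Sec16 and Klp10A, 5 of the 20. The gene brat encodes a translational repressor, PlexA a semaphorin receptor and Sec16 a component of endoplasmic reticulum exit sites. Among them l(2)gl fell with KEE from 6171 ± 317 to 3812 ± 161 RPM and brat from 5559 ± 646 to 3524 ± 98.0 RPM. Both CycG, the cyclin G gene, and Rm62, a DEAD-box helicase gene, rose with either mutant, CycG to 7086 ± 95.3 RPM with KEE. Lower with either mutant were flam, msk (an importin gene), jvl and DIP-alpha (a cell surface immunoglobulin protein), 4 of the 20. None fell with deltaSAM and rose with KEE, and larp passed the threshold in neither. The share of all genes tested with each pair of calls was not counted, so these numbers only describe the 20 peers. Myc rose with deltaSAM (0.64 ± 0.09) and gave -0.13 ± 0.09 with KEE (adjusted p = 0.238, limma with Benjamini-Hochberg), which became a fall of -0.46 when scaled to the gene-table total. For the difference between the effects tj was the 20th of the 21 from the top, and l(2)gl, at -1.83, was the only peer below it.

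Taken library by library, the log2 level of tj above the median of its 20 peers was 1.27, 1.40 and 1.44 with Daed WT and 2.36, 2.47 and 2.16 with deltaSAM. It was 1.82, 1.89 and 1.77 with Armi WT and 1.60, 1.63 and 1.73 with KEE. The deltaSAM libraries stood apart from WT by a wide gap, while the KEE and Armi WT libraries came close to each other without overlap. The mean rose by 0.96 with deltaSAM and moved by -0.17 with KEE (exact permutation p = 0.1 each, the smallest possible). The difference between the effects was -1.13 (exact permutation within experiments, p = 0.005, the smallest possible). As with the shares, the null is no effect in either experiment, so this p does not test whether the effects were equal. When the 20 peers were chosen from the 6 WT libraries alone, the KEE value was 0.03 (exact permutation p = 0.5) and the difference was -1.01 (p = 0.08, exact), while the deltaSAM value was 1.05. With the 50 nearest genes the KEE value was -0.40.

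A search for genes with a profile like that of tj across the 12 libraries compared log2(RPM + 1) after each gene's own mean was taken off, over 1164 genes with a mean of at least 100 RPM. Likeness was measured as the root mean square difference, which was 0.434 for a flat profile and had a median of 0.691 over the genes. This ranks genes on the values that are also tested here, so the nearest genes are a description and not a test. The nearest was Surf4, an endoplasmic reticulum cargo receptor gene, with a difference of 0.104. It was followed by homer (a scaffold protein, 0.166), shrb (an ESCRT-III subunit, 0.169), Arp3 (a subunit of the actin-nucleating Arp2/3 complex, 0.172), Klp10A (0.185) and Diap2 (an inhibitor of apoptosis, 0.185). All but Klp10A were far less abundant than tj.

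Surf4 averaged 115 ± 3.04 RPM with Daed WT, 228 ± 19.5 with deltaSAM, 168 ± 12.2 with Armi WT and 133 ± 8.76 with KEE. Its order of groups was that of tj, with log2 changes of 0.98 ± 0.10 (deltaSAM) and -0.33 ± 0.10 (KEE). The other 5 had log2 changes between 0.83 and 1.07 with deltaSAM and between -0.43 and -0.21 with KEE, smaller falls than that of tj. The calls with KEE on homer, Arp3 and Diap2 were lost when certain single libraries were left out. The profiles nearest to the mirror image of tj were those of RpL3, a ribosomal protein gene (0.157), DIP1 (0.189) and Stt3A, an oligosaccharyltransferase gene (0.197). RpL3 averaged 133 ± 5.57 RPM with Daed WT, 83.0 ± 14.8 with deltaSAM, 85.8 ± 4.40 with Armi WT and 134 ± 9.02 with KEE. DIP1 had log2 changes of -1.28 ± 0.10 and 0.22 ± 0.10 (adjusted p = 0.0844 with KEE, limma with Benjamini-Hochberg). The KEE rise of Stt3A, 0.42 ± 0.10, was lost when scaled to the gene-table total and was -0.01 with edgeR and TMM factors.

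**Figure D5:**
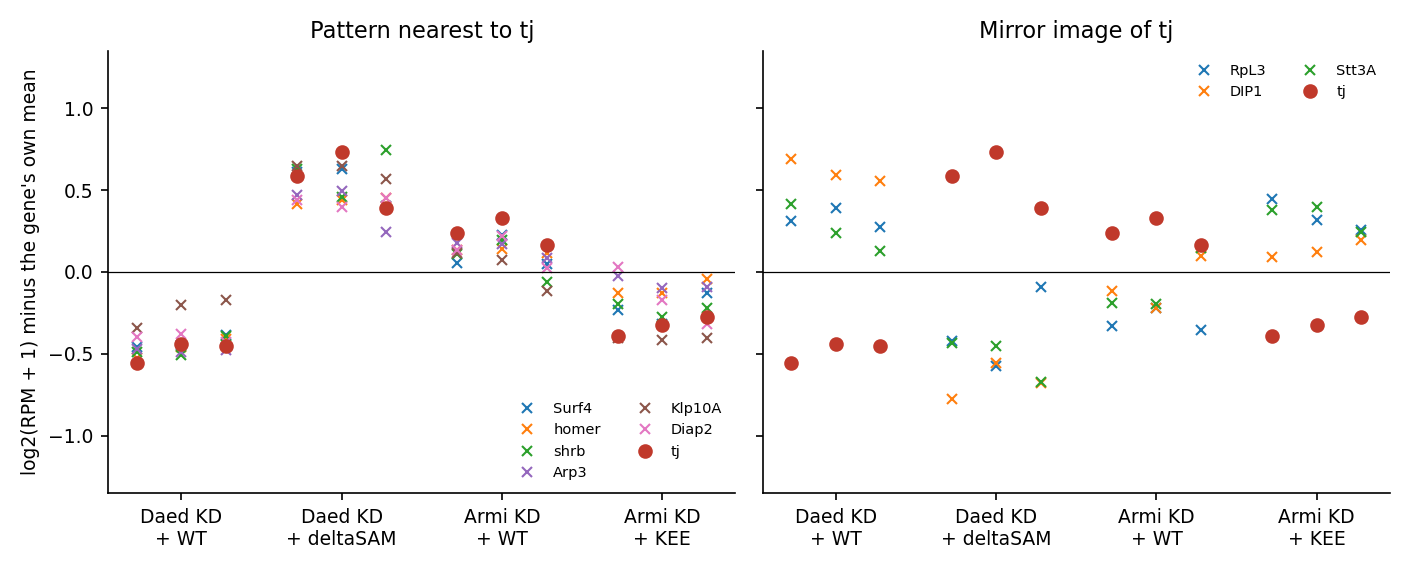
Log2(RPM + 1) minus each gene's own mean in the 12 libraries, for tj (circles) with the 6 nearest profiles (left) and with the 3 nearest to its mirror image (right). On the left all genes are lowest with Daed WT or KEE and highest with deltaSAM, and on the right the order is turned over.

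The piRNAs of 6 genes tied to the Tj protein were looked at as a group. These are piwi, which Tj activates in gonadal somatic cells, maf-S, which encodes a small Maf protein, and the adhesion genes Fas3, shg (E-cadherin), CadN (N-cadherin) and Nrt (Neurotactin). With deltaSAM 2 of the 6 rose and 1 fell, beside 17.3% higher and 18.9% lower over all genes tested, with a median log2 change of -0.10, the same to 2 decimals as over all genes tested. The rises were those of piwi (1.29 ± 0.09) and Nrt (0.97 ± 0.08), and the fall was that of maf-S, at 2.26 ± 0.959 against 0.550 ± 0.552 RPM, a call that edgeR and DESeq2 on recovered reads did not make. With KEE 4 of the 6 rose and none fell, beside 33.0% of all genes tested called higher and 11.7% lower, with a median of 0.63 against 0.30 over all genes tested. Fas3 rose most, from 17.3 ± 4.91 to 88.8 ± 10.2 RPM (2.32 ± 0.25), followed by CadN (1.25 ± 0.16), shg (0.79 ± 0.10) and Nrt (0.47 ± 0.08). The piRNAs of piwi, which had risen beside those of tj with deltaSAM, gave 0.02 ± 0.09 with KEE (adjusted p = 0.883, limma with Benjamini-Hochberg). Scaled to the gene-table total 3 rose and 1 fell with KEE, since piwi then fell, by -0.31, and the call on Nrt was lost. Of the 9249 genes tested on that scale, 1694 were called higher and 1386 lower with KEE.

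Among 17 other genes of the basic leucine zipper family, to which Tj belongs, 3 rose and 5 fell with deltaSAM, with a median of -0.18 against -0.10 over all genes tested, of which 17.3% were called higher and 18.9% lower. With KEE 9 rose and 3 fell, with a median of 0.44 against 0.30 over all genes tested, of which 33.0% were called higher and 11.7% lower. With KEE the largest rises were those of Pdp1, at 67.0 ± 5.36 against 407 ± 44.0 RPM, and Atf3, at 178 ± 1.60 against 662 ± 36.8 RPM, with cnc, the Nrf2 relative, rising by 1.49 ± 0.09. Atf6, a stress sensor of the endoplasmic reticulum, fell with KEE by 1.06 on the log2 scale. With gene-table scaling the counts were 3 and 7 with deltaSAM and 6 and 4 with KEE, and with centring they were 5 and 2 with deltaSAM. Over all genes tested, gene-table scaling gave 962 and 2365 of 9249 with deltaSAM and 1694 and 1386 with KEE. Centring gave 2034 and 923 of 8246 with deltaSAM. No member came near tj in RPM, the highest group mean being 907 RPM, for CrebA with KEE.

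Among 12 genes of somatic piRNA biogenesis factors 5 rose and 4 fell with deltaSAM, with a median of 0.15 against -0.10, where 36.2% of all genes tested were called. With KEE 3 rose and 2 fell, with a median of 0.07 against 0.30, a share called that is close to the 44.7% over all genes tested. The piRNAs of armi itself moved opposite to those of tj, by -0.65 ± 0.08 with deltaSAM and 0.82 ± 0.08 with KEE. In the Armi libraries reads from the armi transgene may be part of that value, which was not tested. In the Daed libraries the same may hold for daed, at 30.4 ± 2.46 RPM with WT and 30.3 ± 1.79 with deltaSAM. The gene fs(1)Yb, whose protein forms the Yb bodies of ovarian somatic cells, fell with KEE from 89.1 ± 1.53 to 34.2 ± 3.62 RPM, a log2 change of -1.36 ± 0.12. With deltaSAM its log2 change was -0.39 ± 0.12 (adjusted p = 0.00916, limma with Benjamini-Hochberg), a call lost when libraries were centred on the median gene. SoYb, a Tudor domain factor, also fell with both mutants, by 0.84 and 0.45 on the log2 scale. Other members went other ways. With deltaSAM Nbr rose by 0.82 ± 0.12, and zuc by 0.94 ± 0.37 at a mean of only 3.33 RPM. Neither was called with KEE. The gene shu moved as armi did, by -0.97 ± 0.15 with deltaSAM and 0.49 ± 0.15 with KEE. With gene-table scaling 2 of the 12 rose and 4 fell with deltaSAM, and 1 rose and 3 fell with KEE. Of the 9249 genes tested on that scale, 962 were higher and 2365 lower with deltaSAM, and 1694 and 1386 with KEE.

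For the Daed knockdown a second table gives reads on 130 transposons as 1 merged value per group, with no replicates and thus no test. Reads on transposons made up 20.5% of the merged WT library and 18.1% of the merged deltaSAM library. The tj gene alone made up 0.777 and 1.62% of the same libraries. Set against each other, there were 26.4 transposon reads for each tj read with WT and 11.1 with deltaSAM. In the WT library 7 elements held more reads than tj, namely QUASIMODO, GTWIN, Gypsy2, ZAM, Gypsy4, Gypsy5 and ROO. In the deltaSAM library 2 did, QUASIMODO with 55866 RPM and GTWIN with 16304 RPM, the latter just above the 16235 RPM of tj. Levels across these tables compare features of unlike length, and a read can be counted in both.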

How the data were processed

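The gene table the authors deposited gives RPM (reads scaled to library size, per the file headers) for 17469 genes in 12 columns. Per the file headers, the deposited transposon table gives counts and RPM of 130 elements, merged over the replicates of a group, and its mean lengths were not used. The submitters' processing notes name HTSeq and STAR as tools and dm6 and BDGP6 as builds, without roles or versions, and strand settings are not given in the sources used here. Small RNAs of 20 to 40 nt bound by an antibody to Piwi were sequenced after removal of ribosomal RNA, per the labels' protocols. RefSeq's gene table (Release 6 plus ISO1 MT) gave symbols for 17341 of 17469 genes (99.3%) and spans for 99.1%.

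Whole reads were recovered from 100.0% of the non-zero gene values within 0.01. The test was limma-trend on log2(RPM + 1) with 4 group means over all 12 libraries, on the 8246 genes of at least 1 RPM in at least 3 libraries, with Benjamini-Hochberg adjustment at 0.05. A fold change on that scale understates low genes. Shares, ratios and levels over peers were compared by exact two-sided permutation. For differences between the effects, labels were permuted within both experiments at once, under a null of no effect in either. The limma test was also run on simulated reads with planted changes. The simulation had no shift between whole groups, so it does not bear on the choice of scaling.

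The members and lists were chosen with earlier results of these data known. Named genes were tj, its 20 peers, flam, piwi, armi, daed and zuc, the 6 nearest and 3 mirror profiles, neighbours of tj, and in each list the 4 members with the smallest p. Sec61beta and CrebA were named after their values were seen. Alternatives covered pseudocounts of 0.1 and 10, no filter and at least 10 RPM, gene-table scaling, centring, 1 comparison's libraries alone, edgeR and DESeq2 on recovered reads, other sets of peers, removal of structural RNA genes, a replicate block and libraries left out. Fits ran in R 4.3.3 with DESeq2 1.42.0, edgeR 4.0.16 and limma 3.58.1. Tables, permutations and plots were made in Python 3.11.15 with matplotlib 3.10.9, scipy 1.17.1, pandas 2.3.3 and numpy 2.4.6.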

Additional observations from a re-analysis of the deposited data

Results flagged for a closer look

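The change in tj differed between the knockdown experiments in level, in share of gene reads and over the 20 genes nearest to it in abundance. In log2 level the KEE effect minus the deltaSAM effect was -1.63 (adjusted p = 1.7e-12, limma with Benjamini-Hochberg), with tj higher in 3 of 3 deltaSAM libraries and lower in 3 of 3 KEE libraries than in their WT libraries. In log2 share of gene reads it was -1.74 and in log2 level over those 20 genes -1.13. Each had an exact permutation p of 0.005, the smallest possible. That permutation takes no effect in either experiment as its null, so it does not test whether the effects were equal. With peers chosen from the 6 WT libraries the last value was -1.01 (exact permutation p = 0.08). The ratio of tj to flam rose with both mutants, and a difference in its rise was not tested. The experiments differ in the protein depleted and replaced, and the experiment itself cannot be told apart from it.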

How the results depend on the processing

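The direction and call of tj held in all 18 alternatives in each of the comparisons of deltaSAM, KEE and the WT groups, and in all 23 for the difference between the effects. The log2 change lay between 0.84 and 1.27 with deltaSAM (0.97 to 1.14 with 1 library left out) and between -0.999 and -0.53 with KEE (-0.61 to -0.53). It lay between 0.39 and 0.79 for the WT groups and between -2.19 and -1.55 for the difference. Same-numbered libraries deviated from their group means with correlations of -0.0133 to 0.0590, and differently numbered ones with -0.0568 to 0.0429. These values show no clear pairing by number but cannot exclude it. With a replicate block the log2 changes of tj were 1.05 (adjusted p = 1.6e-13) and -0.57 (adjusted p = 1.9e-08, limma with Benjamini-Hochberg), and 3036 and 3730 genes were called in place of 2987 and 3684. Over all alternatives that left out no replicate, 2151 to 3327 genes were called with deltaSAM and 3080 to 4228 with KEE. These include the fit of 1 comparison's libraries alone. With peers chosen from the 6 WT libraries, tj over its peers moved by 0.0326 with KEE, against -0.17 as reported, and the difference between the effects was -1.01 (exact permutation p = 0.08). The cause was not tested. Among named genes called as reported, directions turned with KEE for Unr. Its value was -0.12 with gene-table scaling, -0.14 with centring, -0.22 with edgeR and TMM factors and -0.22 with DESeq2. Directions also turned for Stt3A (-0.00840 with edgeR and TMM factors and -0.00932 with DESeq2) and Xbp1 (-0.0293 and -0.0310 with the same). Of 1860 alternative values of named genes 1703 kept the call or its absence, 80 lost the call, 69 gained it and 8 turned. Only genes called as reported could count as turned. A change of direction in an uncalled gene, such as piwi with KEE, was counted as kept or gained. Depth was no limit for tj, with at least 11100 reads in each library, but was for the long noncoding RNA neighbours of tj, at 0 to 22 reads in a library.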
